A study of Homo sapiens with 4 samples.

Results

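The genes that cut, pass and reseal DNA, and the enzymes that clear these cutters when they jam on DNA, were followed through chemotherapy in cell lines of atypical teratoid rhabdoid tumor (AT/RT), an aggressive embryonal brain tumor of young children that in most cases has lost SMARCB1. The 8 genes were chosen by name: the 6 human topoisomerases TOP1, TOP1MT, TOP2A, TOP2B, TOP3A and TOP3B, and the tyrosyl-DNA phosphodiesterases TDP1 and TDP2. They are 8 of the 18449 gene symbols in the expression table, and all 8 had more than 10 counts in every library.

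The cells were BT-16 and CHLA-266, established lines of the AT/RT-MYC subtype, grown in the same medium. Untreated cells of each line were compared with cells that received 1 µM doxorubicin, then 5 µM etoposide and then 1 µM vincristine on 3 consecutive days. By the study's methods most of these cells died, and the treated cells that were harvested came from cultures that grew again some weeks later. Bulk RNA was sequenced in 4 libraries, 1 for each line and condition. A condition thus held 2 libraries from different lines, and p-values measure the spread between these libraries. Whether the lines respond differently cannot be tested.

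Topoisomerases relieve the twisting that replication, transcription and chromosome segregation put on DNA, by making a break in which a tyrosine of the enzyme is bound to the DNA end. Type II enzymes cut both strands, and the drugs used here bear on them directly: etoposide traps TOP2A and TOP2B on their cut ends, doxorubicin poisons TOP2 and intercalates into DNA, and vincristine acts on microtubules instead. TDP2 removes TOP2 remnants from the 5′ ends, and TDP1 removes TOP1 remnants from the 3′ ends.

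Treated cells had far less TOP2A RNA than untreated cells, moderately less TOP2B, TOP3A and TDP1 RNA, and more TDP2 RNA. TOP2A was 31.6-fold lower in treated than in untreated cells, whereas TOP2B was 1.91-fold, TOP3A 1.94-fold and TDP1 2.49-fold lower, and TDP2 was 1.49-fold higher. TOP1, TOP1MT and TOP3B did not pass the test. Of the 8 genes 1 was thus called higher and 4 lower (edgeR quasi-likelihood test, adjusted p under 0.05 over 18066 genes), where 16.1% of all genes tested were called higher and 19.1% lower. With the cell line as a block, 1 of the 8 genes was called higher and 5 lower, TOP1 being added, beside 17.9% and 23.7% of all genes. Levels are given as CPM, the usual unit of counts relative to the library total, after scaling of the totals by trimmed mean of M-values (TMM), and differences as log2 fold changes of treated over untreated cells with their standard error (SE).

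**Figure D1:**
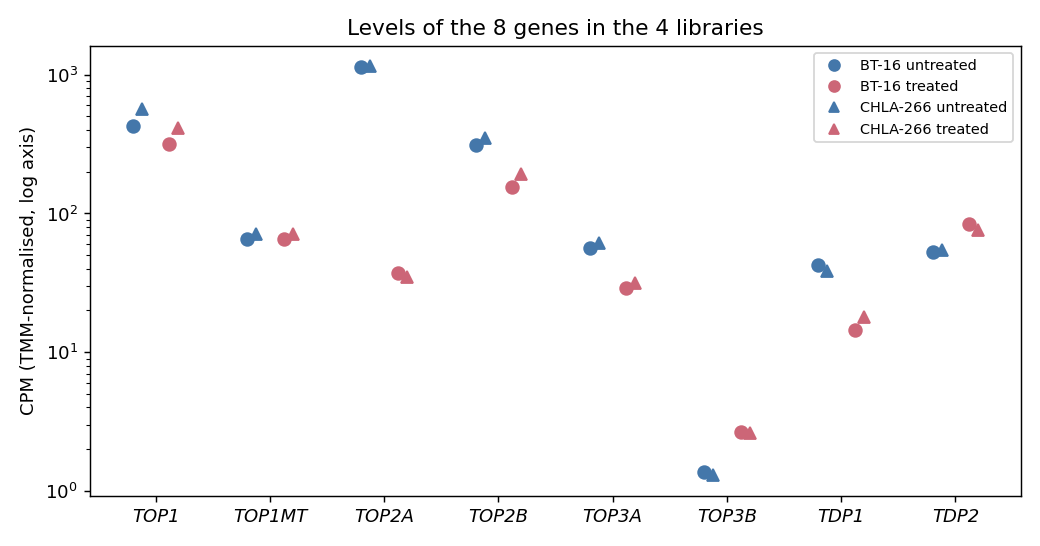
Level of each gene in CPM (vertical axis, logarithmic) in the 4 libraries. Circles are BT-16 and triangles CHLA-266, blue marks untreated and red treated cells. TOP2A falls from 1137 to 37.3 CPM in BT-16 and from 1148 to 35.1 CPM in CHLA-266, TDP2 is the gene called higher, and the treated and untreated levels of TOP1MT coincide.

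The libraries held 75087193 and 66192504 counts in untreated and 51489712 and 49849257 in treated cells of BT-16 and CHLA-266, and more genes were detected in the treated libraries despite their lower totals (17815 and 17114 against 16079 and 15464). The median log2 fold change of all genes was 0.24 under TMM scaling, so a gene at 0 lay below the middle of all genes. This reference rests on genes of low count: over the 12620 genes with 10 or more counts per library the median was 0.0052, from which TOP1MT lay 0.18 and TDP2 0.76 upwards in that fit. The split of all calls depended on the scaling, with 45.7% of the called genes higher under TMM, 61.0% under library totals and 69.7% under upper-quartile scaling. SMARCB1 was present at 15.9 to 21.3 CPM in all libraries, although most AT/RT have it inactivated, and MYC at 118 to 207 CPM. Of 15 markers of myeloid cells, endothelial cells and fibroblasts, 5 were called higher and 1 lower in treated cells. Of all genes tested, 16.1% were called higher and 19.1% lower. The summed level of the 15 markers was 14.6 to 21.7 CPM in untreated and 22.2 to 38.7 CPM in treated libraries. In untreated and treated BT-16 and untreated and treated CHLA-266, 2, 0, 4 and 1 of them were at 0. The endothelial sum went from 0.957 to 10.7 CPM in BT-16 and from 0.812 to 7.93 CPM in CHLA-266. The myeloid sum went from 6.49 to 9.31 and from 3.28 to 5.93 CPM in the same lines. The fibroblast sum rose from 14.2 to 18.7 CPM in BT-16 and fell from 10.5 to 8.37 CPM in CHLA-266. The part of these markers in the results below was not tested. Summed counts of 380 olfactory receptor genes, given below with TOP3B, also rose with treatment. They went from 490 to 5436 in BT-16 and from 515 to 3577 in CHLA-266.

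TOP2A, the isoform of dividing cells that separates sister chromatids and shapes mitotic chromosomes, was read 78464 times before and 2154 times after treatment in BT-16, and 70677 times before and 1826 times after treatment in CHLA-266. On the CPM scale BT-16 went from 1137 to 37.3 and CHLA-266 from 1148 to 35.1. Both untreated libraries were high and nearly equal, both treated libraries were low, and the conditions did not overlap. The mean was 1143 ± 7.55 CPM (SD, n = 2) in untreated and 36.2 ± 1.5 CPM (SD, n = 2) in treated cells. The fall of TOP2A (log2 fold change -4.98, SE 0.19, adjusted p = 1.92e-06, edgeR) was exceeded by 74 of the 18066 genes. In untreated cells TOP2A stood above 99.5% of the tested genes in BT-16 and above 99.6% in CHLA-266, whereas in treated cells it stood above 73.5% and 71.8%. TOP2A was therefore still a readily counted transcript in the treated libraries.

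TOP2B, the isoform that resting and differentiated cells also express, mainly used at transcribed genes, had 21599 and 21628 counts in the untreated libraries of BT-16 and CHLA-266, and 8919 and 10037 in the treated ones. The level fell from 313 to 154 CPM in BT-16 and from 351 to 193 CPM in CHLA-266. The means were 332 ± 27.0 and 174 ± 27.5 CPM (SD, n = 2). All untreated values of TOP2B lay above all treated values, but the distance was small beside that of TOP2A. The log2 fold change of TOP2B was -0.94 (SE 0.18, adjusted p = 0.00521, edgeR).

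The balance of the isoforms turned over. Per kilobase of canonical transcript, TOP2A RNA was 3.71 times TOP2B RNA in untreated BT-16 and 3.34 times in untreated CHLA-266, and 0.247 and 0.186 times in the treated cells. The TOP2A share of both isoforms went from 78.8% to 19.8% in BT-16 and from 76.9% to 15.7% in CHLA-266. The ratio fell 15.0-fold and 18.0-fold, and this change depends neither on the scaling between libraries nor on the transcript length. The level of the ratio does depend on the length: over all exons merged it was 10.6 and 9.56 in untreated and 0.706 and 0.532 in treated cells.

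The upstream regions of TOP2A, TOP2B and TDP2 are shown because these genes, the targets of etoposide and the enzyme that repairs the trapped targets, moved apart. They are taken from RefSeq (GRCh38.p14), run 5′ to 3′ along the gene's strand and end before the first annotated exon base. TOP2A lies on the minus strand with its region at chr17:40417897-40418146, the upstream start of TOP2B on the minus strand at chr3:25664940-25665157, and TDP2 on the minus strand at chr6:24666931-24667034. Capitals mark the CCAAT box (CCAAT or its reverse complement ATTGG) and the core of the cell cycle homology region or CHR (TTTGAA or TTCAAA), short elements that are known from promoters of genes of dividing cells.
TOP2A: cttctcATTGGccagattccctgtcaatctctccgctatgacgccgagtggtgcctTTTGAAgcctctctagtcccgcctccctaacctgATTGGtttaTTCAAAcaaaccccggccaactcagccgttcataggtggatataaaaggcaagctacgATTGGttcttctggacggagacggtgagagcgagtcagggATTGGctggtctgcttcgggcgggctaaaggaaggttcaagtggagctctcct
TOP2B: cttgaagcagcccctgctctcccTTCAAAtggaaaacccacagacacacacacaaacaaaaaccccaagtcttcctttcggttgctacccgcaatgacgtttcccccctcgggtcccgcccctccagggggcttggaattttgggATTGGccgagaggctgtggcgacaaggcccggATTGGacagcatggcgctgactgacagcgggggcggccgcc
TDP2: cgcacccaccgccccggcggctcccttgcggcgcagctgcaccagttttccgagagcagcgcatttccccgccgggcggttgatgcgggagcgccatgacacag

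The sequences of TOP2B (218 bases) and TDP2 (104 bases) are shorter than the 250 bases counted here, since exon bases are not shown, and the TDP2 sequence holds 2 of the 3 GC boxes counted for it. In the 250 bases before its start, TOP2A held 4 CCAAT boxes and 2 CHR cores on either strand, none of them overlapping. Of 35116 RefSeq promoters read over the same length, 32% held at least 1 CCAAT box and 0.874% held 4 or more, while 13.3% held at least 1 CHR core and 1.72% held 2 or more. The upstream start of TOP2B had 2 CCAAT boxes and 1 CHR core in the same window, and another annotated start of the gene had none. TDP2, TOP1, TOP3A and TOP3B had neither, and TDP1 had 1 CHR core. A GC box (GGGCGG or CCGCCC), which 42.6% of the promoters held, was found 3 times in the 250 bases before TDP2, once or more before TOP2A, TOP2B, TOP1 and TOP3A, and not before TDP1 and TOP3B. These matches are letters in a window, and no binding was measured.

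Genes whose profile over the 4 libraries was most like that of TOP2A were named by the Euclidean distance between centred log2 CPM profiles, among the 12620 genes whose count reached 10 in all 4 libraries. The nearest were GTSE1 at a distance of 0.163, the histone gene H2AC21 at 0.179, the replication factor MCM10 at 0.198, and RAD51AP1 and the kinetochore gene NDC80, both at 0.210. For TOP2B they were LRRC59 (0.0143), ZNF653 (0.0194), SIPA1 (0.0293), PPP6R3 (0.0296) and DDX23 (0.0462). With 4 libraries in 2 conditions, many genes of like fold change have such profiles.

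Proliferation genes moved in the same direction as TOP2A. Of 10 such genes 9 were called lower and none higher, where 19.1% of all genes tested were called lower. The 10 genes had a median log2 fold change of -4.58. Their summed level went from 4139 to 139 CPM in BT-16 and from 4461 to 136 CPM in CHLA-266. MKI67, the usual marker of cycling cells, fell by 6.03 on the log2 scale and CDK1, the kinase that drives mitosis, decreased by 5.31 on that scale, while NUSAP1 had at most 103 counts and did not pass. By the study's methods the treated cells came from regrown cultures, yet proliferation RNA was low in both treated libraries. The growth state at harvest is not given in the sources used here. The part of cell division in the TOP2A level was not tested, and in bulk RNA fewer TOP2A-expressing cells and less TOP2A RNA per cell cannot be told apart. All 8 condensin subunits, which compact mitotic chromosomes together with TOP2A, were called lower (median -3.60), among them NCAPH at -6.14 and NCAPG at -5.04.

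TDP2, which unlinks trapped TOP2 from DNA ends, went from 3618 to 4843 counts in BT-16 with treatment, and from 3374 to 3977 in CHLA-266. Its level was 52.4 and 54.8 CPM in the untreated libraries and 83.8 and 76.5 CPM in the treated ones. The means were 53.6 ± 1.67 CPM in untreated and 80.2 ± 5.12 CPM in treated cells (SD, n = 2). Both treated libraries were above both untreated libraries, although the treated libraries were smaller. TDP2 rose with a log2 fold change of 0.58 (SE 0.15, adjusted p = 0.0205, edgeR), which is 0.34 above the median of all genes. Of all genes tested, those of low count included, 57.6% had a lower log2 fold change than TDP2. Among all these genes a rise of this size was thus common. In the fit of genes with 10 or more counts in every library, TDP2 lay 0.76 above the median. The call of TDP2 held in all 10 alternative fits with all libraries, with log2 fold changes of 0.58 to 0.93. It was lost without untreated BT-16 (adjusted p = 0.0922), without treated BT-16 (adjusted p = 0.0640) and without untreated CHLA-266 (adjusted p = 0.0741).

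TDP2 thus increased against the enzymes whose remnants it removes. Per kilobase, TDP2 RNA was 0.107 times the summed TOP2A and TOP2B RNA in untreated BT-16 and 0.108 times in untreated CHLA-266, and 1.31 and 1.00 times in the treated cells. The ratio rose 12.2-fold in BT-16 and 9.29-fold in CHLA-266, while TDP2 alone moved 1.49-fold. Over all exons merged the same ratio rose 22.1-fold and 17.5-fold.

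ACOT13, a mitochondrial thioesterase gene that starts 178 bases from TDP2 on the opposite strand by RefSeq, was read because of this position. Its level went from 39.0 to 55.1 CPM with treatment in BT-16, and from 35.8 to 52.5 CPM in CHLA-266. ACOT13 was called higher as well (log2 fold change 0.52, SE 0.16, adjusted p = 0.0358, edgeR), so the treated values of both genes lay above the untreated ones. The libraries were made with a stranded kit, but how strand entered the counting is not given in the sources used here.

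Partners of TDP2, together with nucleases and other genes that act on TOP2-blocked ends, were read next. Of 10 genes that help to free TOP2-blocked ends, none was called higher and 5 were called lower, with a median log2 fold change of -0.63 beside 0.24 for all genes. The lowest were BRCA1, a recombination gene, at -4.06 and MRE11, a nuclease that trims blocked ends, at -1.70. In the fit of genes with 10 or more counts in every library, the median was -0.45 for the 10 genes and 0.0052 for all genes. With the cell line as a block, 8 of the 10 were called lower, beside 23.7% of all genes in that fit. ZNF451, the SUMO ligase that lets TDP2 act on intact TOP2, did not pass without the block (log2 fold change -0.40, adjusted p = 0.0928, edgeR). It was called lower with the block (log2 fold change -0.39, adjusted p = 0.0333, edgeR). ZNF451 is named here for its known link to TDP2. Of 8 genes of nonhomologous end joining, which rejoins the freed ends, 6 were called lower and none higher (median -1.03), led by XRCC6 at -1.38 and PRKDC at -1.34. Under upper-quartile scaling 4 of these 8 were called lower and 1 higher, beside 1895 lower and 4361 higher of all 18066 genes. Under TMM 3454 of all genes were called lower and 2910 higher.

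**Figure D2:**
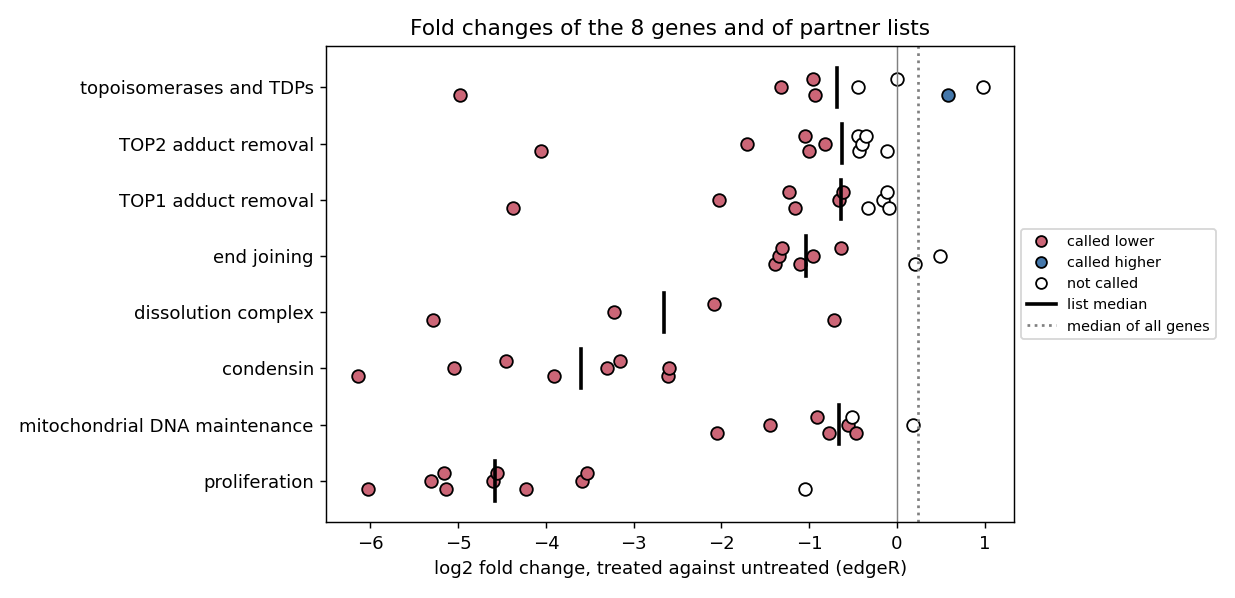
Log2 fold change of treated over untreated cells (horizontal axis) for each gene of the 8 topoisomerase and TDP genes and of 7 lists of partner genes (rows). Filled points passed the test, vertical bars are list medians and the dotted line is the median of all genes tested, 0.24. The topoisomerases and TDPs spread from -4.98 to 0.98, whereas all condensin genes and 9 of 10 proliferation genes were called lower.

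TOP1, the type IB enzyme that works ahead of replication and transcription, is the member with the most RNA after treatment. BT-16 gave 29615 TOP1 counts before treatment and 18448 after it, and CHLA-266 gave 34633 and 21482. In CPM, TOP1 stood at 429 before and 319 after treatment of BT-16, and at 563 before and 413 after treatment of CHLA-266. Each line was lower after treatment and CHLA-266 was the higher line in each condition, so treated CHLA-266 nearly reached untreated BT-16. Across lines the log2 fold change of -0.44 (SE 0.20, adjusted p = 0.123, edgeR) did not pass the test. With the line as a block it did (adjusted p = 0.0163), as it did without treated CHLA-266 (log2 fold change -0.63, adjusted p = 0.0289). Without untreated CHLA-266 the value was -0.23 (adjusted p = 0.513, edgeR) and without treated BT-16 -0.26 (adjusted p = 0.383), and it was -0.22 under library totals (adjusted p = 0.372) and -0.10 under upper-quartile scaling (adjusted p = 0.710). PLCG1-AS1 is annotated on the opposite strand over TOP1, and a processed pseudogene TOP1P1 exists, so some reads may be shared.

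TOP1 gained in share where TOP2A lost it. Of the summed topoisomerase RNA per kilobase, TOP1 grew from 27.9% to 54.3% in BT-16 with treatment and from 32.8% to 57.5% in CHLA-266. TOP2A shrank from 48.5% to 4.15% in the first line and from 43.9% to 3.20% in the second line. The sum of the 6 topoisomerases itself went from 411 to 157 CPM per kilobase in BT-16 and from 459 to 193 in CHLA-266.

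**Figure D3:**
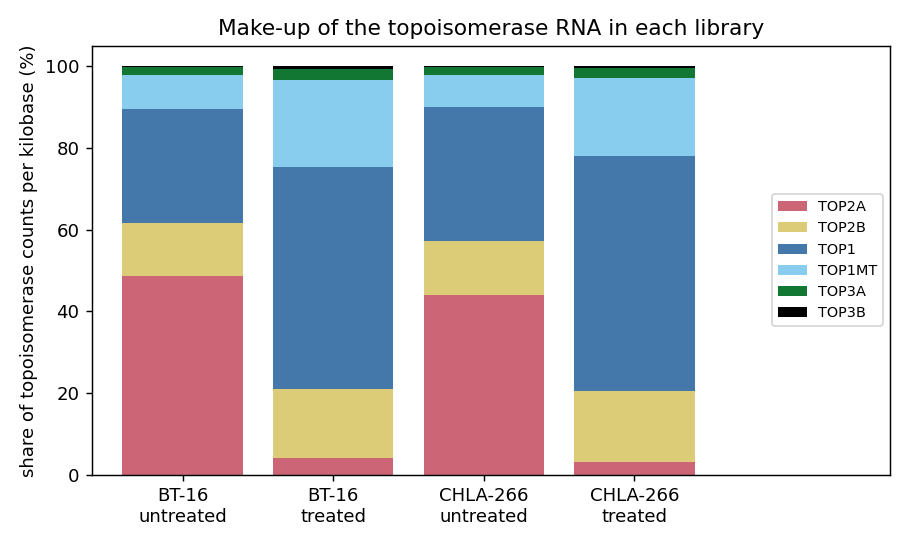
Share of each topoisomerase in the summed topoisomerase counts per kilobase of canonical transcript (vertical axis, %) in the 4 libraries. TOP2A is the largest share in both untreated libraries (48.5% and 43.9%) and TOP1 in both treated ones (54.3% and 57.5%).

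TDP1, which frees DNA from TOP1, dropped from 2924 to 840 counts in the BT-16 libraries and from 2360 to 928 in the CHLA-266 libraries. This is a change from 42.4 to 14.5 CPM in the former line and from 38.3 to 17.9 CPM in the latter. The conditions did not overlap, and the log2 fold change was -1.32 (SE 0.20, adjusted p = 0.00168, edgeR). TDP1 and TDP2 thus moved in opposite directions: TDP2 RNA per kilobase went from 2.38 to 11.1 times TDP1 RNA in BT-16 and from 2.75 to 8.24 times in CHLA-266. TDP1 fell more than its substrate enzyme TOP1, the ratio of TDP1 to TOP1 going from 0.0991 to 0.0457 in BT-16 and from 0.0684 to 0.0433 in CHLA-266. Among 10 genes that complete TDP1 repair or remove the TOP1 adduct in another way, 6 were called lower and none higher (median -0.64), with EME1, part of a structure-specific nuclease, at -4.37 and XRCC1, the scaffold of single-strand break repair, at -2.03. The count of that list was 4 lower under upper-quartile scaling and under library totals. These scalings called 1895 and 2353 of all genes lower, against 3454 under TMM.

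TOP1MT, the mitochondrial type IB enzyme encoded in the nucleus, had 4522 and 4364 counts in untreated and 3768 and 3707 in treated cells of BT-16 and CHLA-266. Scaled to CPM, BT-16 had 65.6 before and 65.2 after treatment, CHLA-266 had 70.9 before and 71.3 after it, and the ranges of the conditions overlapped. The log2 fold change was 0.00 (SE 0.16, adjusted p = 0.997, edgeR), and under other scalings it reached 0.35 without passing. Of 8 genes of mitochondrial DNA maintenance, 6 were called lower and none higher (median -0.66), with the nuclease MGME1 at -2.05 and the packaging factor TFAM at -1.45. Under upper-quartile scaling 3 of these 8 were called lower, where 1895 of all genes were called lower against 3454 under TMM.

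TOP3A, a type IA enzyme that separates joined DNA molecules after recombination and also acts in mitochondria, was counted 3914 and 3748 times in the untreated libraries of BT-16 and CHLA-266, against 1685 and 1636 times in the treated ones. It fell from 56.7 to 29.1 CPM in BT-16 and from 60.9 to 31.5 CPM in CHLA-266. The 2 lines were close to each other in each condition, and the log2 fold change was -0.96 (SE 0.16, adjusted p = 0.00319, edgeR). The partner genes of the type IA enzymes fell too: all 4 were called lower (median -2.65), led by the helicase BLM at -5.29 and RMI2 at -3.22, which work with TOP3A, and including TDRD3, the partner of TOP3B, at -0.71 (adjusted p = 0.0136, edgeR). Under upper-quartile scaling and library totals 3 of the 4 were called lower, beside 1895 and 2353 of all genes against 3454 under TMM.

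TOP3B, the type IA enzyme that also acts on RNA, was the lowest member, with 95 and 80 counts in the untreated and 155 and 135 in the treated libraries of BT-16 and CHLA-266. This amounts to 1.38 and 1.30 CPM without and 2.68 and 2.60 CPM with treatment. Both treated libraries lay above both untreated ones, but the log2 fold change of 0.98 (SE 0.50, adjusted p = 0.156, edgeR) did not pass, nor did it in any alternative fit. For scale, 380 olfactory receptor genes, which these cells are not known to use, summed to 490 and 515 counts in untreated and 5436 and 3577 in treated BT-16 and CHLA-266. Their 95th percentile was 4.15 and 3.83 counts per kilobase in untreated and 31.0 and 21.4 in treated cells, where TOP3B had 33.5 and 28.2 in untreated and 54.7 and 47.6 in treated cells. The part of this rise of low counts in the TOP3B values was not tested. PPM1F-AS1 is annotated on the opposite strand over TOP3B, and the pseudogene TOP3BP1 may share reads.

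Both lines had the same direction in 7 of the 8 genes, TOP1MT being the exception under TMM with values near 0, and in all 8 under the other 3 scalings. The log2 ratios of treated to untreated CPM carry an exact 95% interval that covers counting error only. TOP2A was at -4.93 (-4.99 to -4.87) in BT-16 and -5.03 (-5.10 to -4.96) in CHLA-266. TDP1 was at -1.54 (-1.66 to -1.43) in BT-16 and -1.10 (-1.21 to -0.99) in CHLA-266, and TDP2 at 0.68 (0.61 to 0.74) and 0.48 (0.42 to 0.55). TOP2B was at -1.02 (-1.06 to -0.99) and -0.86 (-0.90 to -0.83). For TDP1 and TDP2 the intervals of the lines did not overlap under TMM, DESeq2 size factors, library totals or upper-quartile scaling, BT-16 having the larger change. For TOP2B they were apart under TMM and DESeq2 size factors but overlapped under library totals (-0.73 and -0.70) and upper-quartile scaling (-0.62 and -0.57). The TOP2A intervals overlapped under TMM and not under the other 3 scalings. TOP3A (-0.96 and -0.95) and TOP3B (0.96 and 1.00) had overlapping intervals under all 4 scalings. TOP1 was at -0.43 and -0.44 under TMM, where the intervals overlapped. It was at -0.33 and -0.41 under DESeq2 size factors, -0.14 and -0.28 under library totals and -0.030 and -0.15 under upper-quartile scaling. Under each of these other 3 scalings the TOP1 intervals did not overlap. With 1 library for each line and condition these differences between lines have no replicate check. The share of all genes with intervals apart, or with the same direction in both lines, was not counted. Neither observation is thus shown to be particular to these 8 genes.

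**Figure D4:**
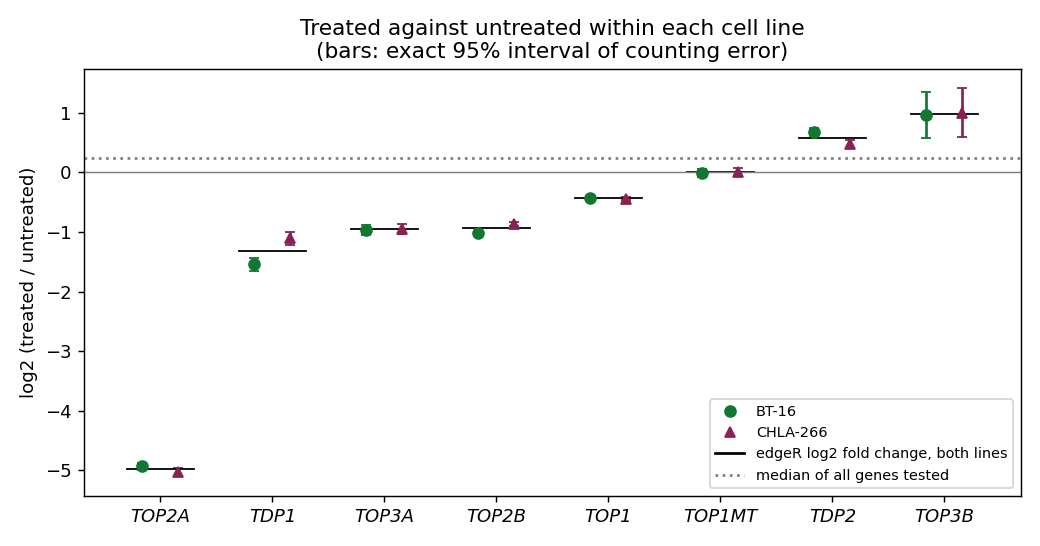
Log2 ratio of treated to untreated CPM (vertical axis) in BT-16 (circles) and CHLA-266 (triangles), with exact 95% intervals of counting error. Horizontal black bars are the edgeR log2 fold changes over both lines and the dotted line is the median of all genes. TOP2A stands apart near -5, and TDP1 is the gene whose lines lie farthest from each other (-1.54 and -1.10).

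With the condition taken out, none of the 8 genes was called between CHLA-266 and BT-16 by edgeR or by DESeq2. By edgeR, 0.836% of all genes were called higher and 1.46% lower in CHLA-266. With so few genes called, the lack of a call neither sets these 8 apart nor shows equal levels. TOP1 alone had an unadjusted p under 0.05 (log2 difference 0.38 higher in CHLA-266, SE 0.15, adjusted p = 0.255, edgeR). TOP2B came next with 0.24 (SE 0.15, adjusted p = 0.657), and TOP2A differed by -0.03 (SE 0.15, adjusted p = 0.998).

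On the CPM per kilobase scale the order of levels in untreated cells was TOP2A (200 to 202), TOP1 (115 to 151), TOP2B (53.9 to 60.4), TOP1MT (33.8 to 36.5), TDP2 (27.1 to 28.3), TDP1 (10.3 to 11.4), TOP3A (8.60 to 9.23) and TOP3B (0.459 to 0.486), and no neighbours overlapped between the lines. In treated cells it was TOP1 (85.5 to 111), TDP2 (39.5 to 43.3), TOP1MT (33.6 to 36.7), TOP2B (26.5 to 33.2), TOP2A (6.17 to 6.54), TOP3A (4.42 to 4.77), TDP1 (3.90 to 4.80) and TOP3B (0.917 to 0.946), where TOP3A and TDP1 overlapped. TOP2A went from the first to the fifth place and TDP2 from the fifth to the second. Over all exons merged TOP2A went from the first to the fifth place as well, but TDP2 stood just below TOP1, overlapping TOP2B, already before treatment. The meiotic relatives SPO11 and TOP6BL, not called either way, had at most 7 counts and 712 to 1227 counts.

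The calls of TOP2A, TOP2B, TOP3A and TDP1 held in all 10 alternative fits and in the 4 fits without 1 library. TOP2A ranged from -5.02 to -4.63 and TDP1 from -1.46 to -0.97 over these fits, and TOP2B from -1.10 to -0.59 with an adjusted p of at most 0.0287.

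**Figure D5:**
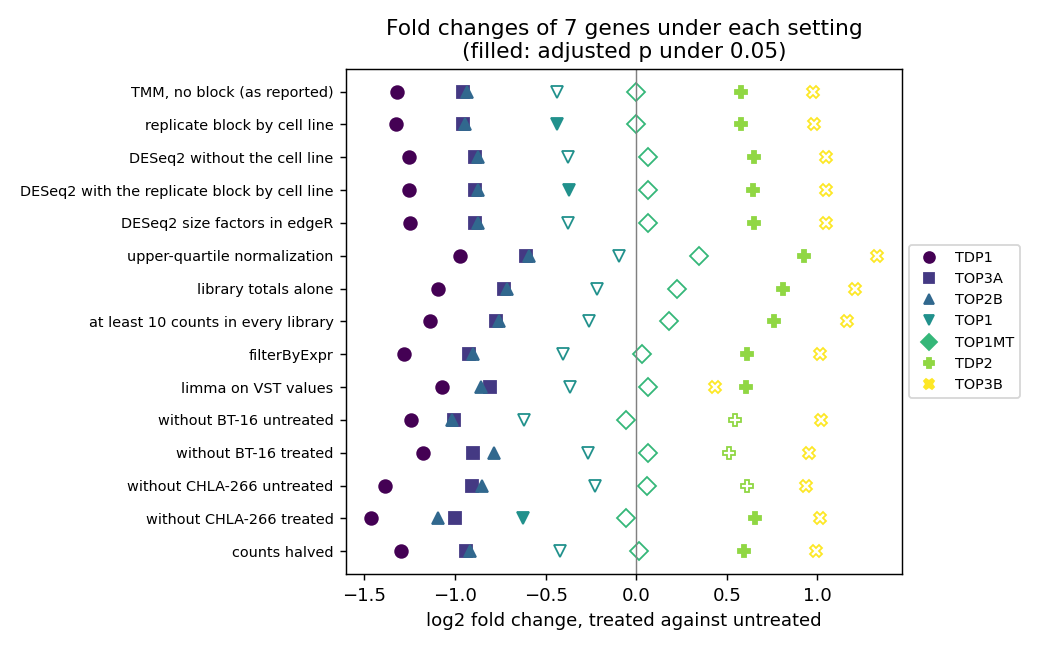
Log2 fold change (horizontal axis) of the 7 genes other than TOP2A under each setting (rows), filled where the adjusted p was under 0.05. TOP2B, TOP3A and TDP1 are filled in all rows, TDP2 is open in 3 of the 4 rows without 1 library, and TOP1 is filled with the cell line as a block and without treated CHLA-266.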

How the data were processed

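RNA of 4 bulk cultures was sequenced after SMART-Seq Stranded library construction. Per the labels, reads were demultiplexed with bcl2fastq 2.20 and aligned to hg38 with STAR; reads were counted per gene as feature counts by the study's methods, and the strand setting is not given in the sources used here. The authors deposited estimated counts per gene symbol and log2 VST values, the latter used only in an alternative. Count values were whole except 5 values in 2 genes and were rounded. Of counts from 1 to 20, 20.5% to 34.2% were odd, so many may count both mates of a pair, and a fit on halved counts was added after seeing the data, as was exon merging.

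All 18066 genes with a nonzero total were fitted with edgeR 4.0.16 (TMM, quasi-likelihood, Benjamini-Hochberg adjustment, threshold 0.05) in R 4.3.3, without the cell line. The alternatives were the line as a block, DESeq2 1.42.0, other scalings and filters, limma 3.58.1 on VST values and leaving out each library. The libraries are paired by the cell line itself, and the deviations of the same line correlated at 0.257 over 12620 genes. Between lines, the condition was a covariate. With 2 libraries against 2 an exact permutation test cannot go below 0.333 and was not used. Within-line ratios add 0.5 counts and carry Clopper-Pearson 95% intervals, too narrow where mates were counted separately; with halved counts the same genes (TDP1, TDP2 and TOP2B) had intervals apart between lines. Lengths are those of canonical transcripts of GENCODE 44, or all exons merged. Scripts were tested on simulated data.

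The 8 genes, the partner lists and the markers were chosen with earlier results of these data known, so their directions are not independent evidence. Named genes were all 8 members, the 2 most changed genes per direction and list among those called, and the 5 genes most like TOP2A and TOP2B. ACOT13, ZNF451, TDRD3, NUSAP1 and the olfactory receptors were added, by position, known role or level. By GENCODE 44 (hg38) the genes are TOP1 (ENSG00000198900, chr20:41028822-41124487), TOP1MT (ENSG00000184428, chr8:143304384-143359979), TOP2A (ENSG00000131747, chr17:40388525-40417896), TOP2B (ENSG00000077097, chr3:25597978-25664909), TOP3A (ENSG00000177302, chr17:18271428-18315007), TOP3B (ENSG00000100038, chr22:21957025-21982813), TDP1 (ENSG00000042088, chr14:89954939-90044764) and TDP2 (ENSG00000111802, chr6:24649979-24666930). Promoter sequences of 7 of the 8 genes were read from RefSeq.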

Additional observations from a re-analysis of the deposited data

Results flagged for a closer look

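Under TMM scaling, TOP1MT had opposite signs in the 2 cell lines, its log2 ratio between treated and untreated cells being -0.0082 in BT-16 and 0.0090 in CHLA-266. Both exact 95% intervals of counting error hold 0 (-0.07 to 0.05 and -0.05 to 0.07), and the difference between the lines was not tested. Both lines were above 0 under upper-quartile scaling (0.39 and 0.31), library totals (0.28 and 0.17) and DESeq2 size factors (0.091 and 0.045).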

How the results depend on the processing

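Of the log2 fold changes recomputed for the 8 genes, 104 kept their direction and their side of the threshold, 3 passed it anew (TOP1) and 3 lost it (TDP2). Without 1 library TOP1MT ranged from -0.0547 to 0.0643, changing sign, and the genes among the 8 called higher ranged from 0 to 1, TDP2 being the gene that was lost. Of the within-line log2 ratios, 37 moved beyond their counting interval, all under other scalings and none with halved counts, and 27 did not. Over all genes, 1895 were called lower under upper-quartile scaling against 3454 as reported. Between the lines, where 415 genes were called, 0 were called without the condition as a covariate (92 at an unadjusted p under 0.05), 271 by DESeq2, 680 with DESeq2 size factors, 689 with library totals and 130 with at least 10 counts in every library. Without the condition the difference between the lines turned to 0.0105 for TOP2A and to -0.0185 for TDP1. The cause was not tested. The edgeR fit with the cell line as a replicate block called 7522 genes against 6364 and added TOP1 (adjusted p = 0.0163). The DESeq2 fit with that block called 7100 genes against 7557 without it, and also added TOP1 (adjusted p = 0.0250). The block changed the call of no other of the 8 genes. Leaving out 1 library of the line comparison leaves no spread to test against. TOP3B, at 80 to 155 counts, is the gene whose precision is limited by depth.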
